A study of Mus musculus with 16 samples.

Results

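The genes of cholesterol and fatty acid synthesis were followed in hippocampal RNA of mice of the SAM/P-8 and SAM/R-1 lines fed a control diet or a diet with coral calcium hydride (CCH). The set held 37 genes chosen by name, 28 of a sterol arm and 9 of a fatty acid arm, out of 13455 genes with a measured probe on a single-colour array that covers the mouse transcriptome. A probe was found for 36 of the 37 genes, 27 of the sterol arm and all 9 of the fatty acid arm, and each of the 36 was well above background on all 16 arrays. No probe could be assigned to Idi1, which isomerises isopentenyl diphosphate, and it is named only.

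The mice were males of the senescence-accelerated mouse family, whose lines all derive from AKR/J stock. SAM/P-8 is the line prone to early senescence and learning deficits, and SAM/R-1 is its resistant counterpart. Mice entered the study at 8 weeks of age and were fed for 8 weeks on plain CE-2 chow or on CE-2 chow with 0.1% CCH, which gave 4 groups of 4 arrays: SAM/P-8 control, SAM/P-8 CCH, SAM/R-1 control and SAM/R-1 CCH. The labels do not say how many mice stand behind an array or whether each array is a separate mouse, so p-values measure the spread between these arrays only.

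The brain makes nearly all of its own cholesterol, because lipoprotein cholesterol does not cross the blood-brain barrier. The sterol arm runs from acetyl-CoA through mevalonate and squalene to lanosterol and then, over many steps, to cholesterol. When membrane sterol is low, SCAP carries the SREBP transcription factors from the endoplasmic reticulum to the Golgi, where they are cut and freed to switch on the synthesis genes, and INSIG proteins hold SCAP back when sterol is ample. The liver X receptors act on the other side of the balance, on the exporters ABCA1 and ABCG1. The fatty acid arm makes palmitate from acetyl-CoA and then lengthens and desaturates it and the dietary fatty acids, and much of the brain's demand for both arms comes from myelin.

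Values are log2 processed signals minus the 75th percentile of the same array, so a value of 1 lies 1 doubling above that percentile. They compare 1 gene between arrays, not 1 gene with another. Of the 43379 gene spots on each array, 28920 to 33333 were well above background, and arrays of one group correlated at 0.987 to 0.997 over the kept probes. Several arrays stood apart in markers of other tissues or cells. SAM/P-8 CCH replicate 4 had a score of 3.80 for 11 striatal markers, where the other 15 arrays lay between -0.74 and 0.24, and its summed striatal signal was 211.3 against 7.924 to 21.83. Its score for 12 measured oligodendrocyte markers was 0.60, where the others lay between -0.24 and 0.16, and its score for 11 hippocampal neuron markers was the lowest, at -0.36. SAM/P-8 control replicates 1 and 2 had scores of 1.78 and 2.54 for 4 measured red cell markers, against -1.04 to 0.29 on the other 14 arrays. Choroid plexus scores varied within every group, from -2.69 on SAM/P-8 CCH replicate 3 to 1.61 on SAM/P-8 control replicate 2. Results that rest on SAM/P-8 CCH replicate 4 are given with and without it, and the counts of called members also without the red cell pair. The 4 arrays of a group shared a slide with no other group, and effects of slide and of group therefore cannot be told apart. In bulk tissue, the same holds for fewer cells of a type and less RNA per cell, which cannot be told apart.

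The larger differences in these genes lay between the groups of different strain, and few members were called between the diets. A gene was called when its adjusted p was below 0.05 in a limma fit of all 16 arrays, adjusted over all kept probes. Between SAM/P-8 and SAM/R-1, 6 of the 36 members were called on the control diet, 4 higher and 2 lower in SAM/P-8, where 12.8% of all genes were called, 6.18% higher and 6.61% lower. On the CCH diet 5 were called, 3 higher and 2 lower, against 12.6% of all genes, 6.11% higher and 6.50% lower. The members' share was near that of all genes in both cases. With CCH in the diet, 1 member was called in SAM/P-8, where 0.780% of all genes were called, and none in SAM/R-1, where 0.104% were. Averaged over both strains, 5 members were called, all 5 higher with CCH, where 4.14% of all genes were called and 1.61% were called higher. No member was called for a difference between the strains in the diet effect, where 0.134% of all genes were. A fit without SAM/P-8 control replicates 1 and 2 was added after the data were seen. In it 3 members were called between the strains on the control diet (Hsd17b7, Dhcr7 and Scap) and 4 on the CCH diet. For CCH, 0 were called in SAM/P-8 and 1, Insig1, on average (0.36, adjusted p = 0.0333). Of all genes, 7.05%, 12.8%, 0.0446% and 1.14% were called in that fit, in the same order.

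**Figure D1:**
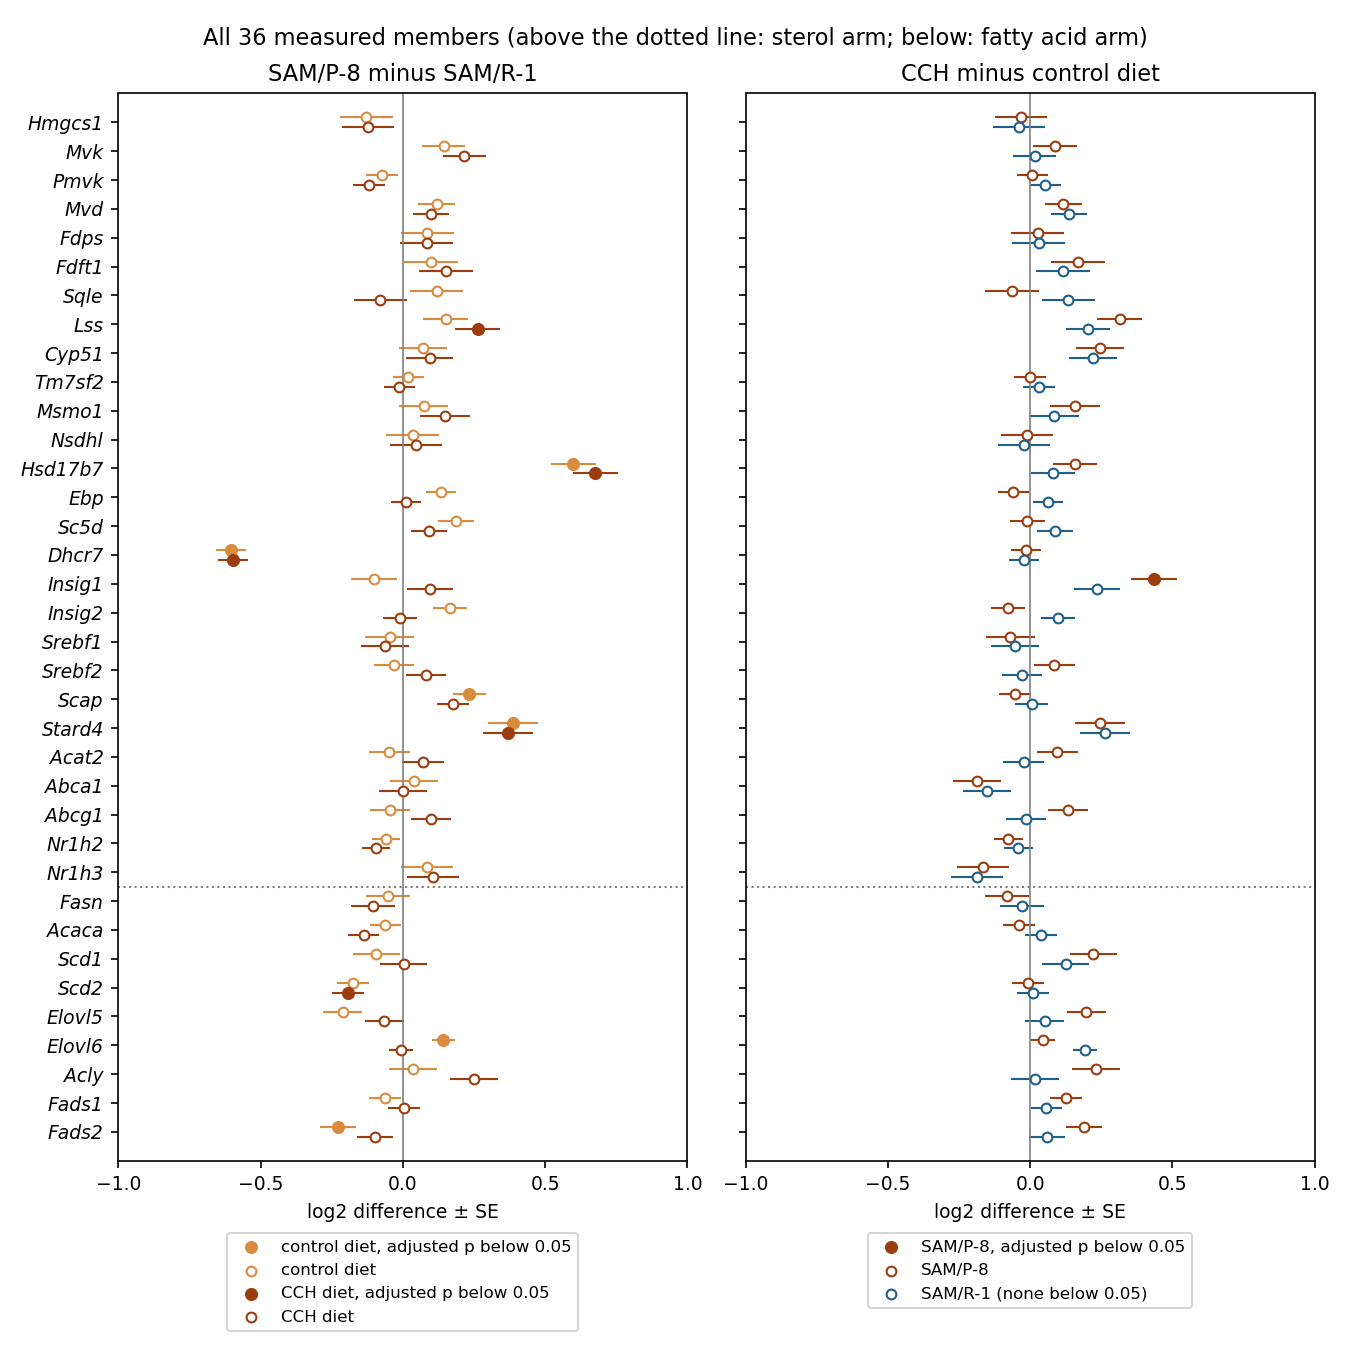
Differences of the 36 measured members on the log2 scale, with bars of 1 SE from the fit of 16 arrays. The left panel gives SAM/P-8 minus SAM/R-1 on each diet and the right panel CCH minus control in each strain, with filled points where the adjusted p was below 0.05. Hsd17b7 at 0.60 and 0.68 and Dhcr7 at -0.60 on both diets lie farthest from 0, and Insig1 in SAM/P-8, at 0.43, is the only filled point on the right.

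In the strain comparison, 2 late enzymes of the sterol arm stood at opposite ends. Hsd17b7, the ketosteroid reductase that acts while lanosterol loses its methyl groups, measured 0.87, 0.88, 0.72 and 0.88 in SAM/P-8 control and 0.26, 0.22, 0.07 and 0.42 in SAM/R-1 control. On the CCH diet it measured 1.03, 0.98, 1.08 and 0.90 in SAM/P-8 and 0.50, 0.28, 0.27 and 0.22 in SAM/R-1. Every SAM/P-8 array lay above every SAM/R-1 array, whatever the diet. The difference was 0.60 ± 0.08 (SE) on the control diet, a 1.52-fold higher level (adjusted p = 7.73e-05), and 0.68 ± 0.08 on the CCH diet (1.60-fold, adjusted p = 2.4e-05). A second Hsd17b7 probe gave 0.80 and 0.89, called on both diets.

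Dhcr7, which carries out the final reduction to cholesterol, went the other way. It measured 2.58, 2.79, 2.75 and 2.81 in SAM/P-8 control against 3.31, 3.28, 3.37 and 3.39 in SAM/R-1 control, and 2.80, 2.71, 2.71 and 2.65 in SAM/P-8 CCH against 3.30, 3.36, 3.30 and 3.31 in SAM/R-1 CCH. The strains did not overlap on either diet, and within a strain the diets did. Dhcr7 was lower in SAM/P-8 by 1.52-fold on the control diet, a difference of -0.60 ± 0.05 (adjusted p = 1.45e-06), and by 1.51-fold on the CCH diet, also -0.60 ± 0.05 (adjusted p = 1.69e-06). A second probe for Dhcr7 was lower too, by less, at -0.36 and -0.23, and was called on both diets. Hsd17b7 and Dhcr7 passed the test on both diets in all 9 alternative settings and with any 1 array left out.

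The probes that stand for the remaining 6 measured genes between lanosterol and cholesterol were not called between the strains on either diet. A dimmer probe for Cyp51, which removes the first methyl group of lanosterol, was called higher in SAM/P-8 on the CCH diet at 0.43 (adjusted p = 0.0146), so the probes of Cyp51 disagree in this comparison. Sc5d, the lathosterol desaturase one step before Dhcr7, had the smallest p among the sterol genes not called on the control diet, at 0.19 ± 0.06 (adjusted p = 0.065). Of the 3 genes from farnesyl diphosphate to lanosterol, 1 was called. Lss, lanosterol synthase, measured -1.12, -1.16, -1.26 and -1.40 in SAM/P-8 CCH and -1.33, -1.52, -1.56 and -1.58 in SAM/R-1 CCH, so the groups overlapped at 1 array each. The difference on the CCH diet was 0.26 ± 0.08 (1.20-fold, adjusted p = 0.0391), and the second Lss probe gave 0.28 (adjusted p = 0.0196). This Lss call was lost in 5 of 9 alternative settings, and with normexp background correction the difference was 0.15 (adjusted p = 0.677). It was also lost without any 1 of SAM/P-8 control replicate 4, SAM/P-8 CCH replicates 1 to 3, SAM/R-1 control replicate 3 and SAM/R-1 CCH replicates 2 to 4, with an adjusted p of up to 0.105. None of the 6 measured mevalonate-stage genes was called, from Acat2 and Hmgcs1, which build the first intermediates, to Fdps, which makes farnesyl diphosphate. Their differences ran from -0.13 to 0.14 on the control diet and from -0.12 to 0.22 on the CCH diet. Hmgcs1 was at the low end of both ranges. A dimmer Hmgcs1 probe went the other way, at 0.22 and 0.23, and was not called.

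Among the sterol-sensing genes, Scap was higher in SAM/P-8 on the control diet. It measured 3.77, 3.95, 3.94 and 3.86 in SAM/P-8 control and 3.58, 3.62, 3.64 and 3.75 in SAM/R-1 control. The lowest SAM/P-8 value lay just above the highest SAM/R-1 value, and the difference was 0.23 ± 0.06 (1.18-fold, adjusted p = 0.0131). On the CCH diet Scap measured 3.87, 3.78, 3.84 and 3.82 against 3.59, 3.77, 3.62 and 3.62, a difference of 0.18 ± 0.06 that did not pass (adjusted p = 0.0571). The call on the control diet was lost in 3 of 9 alternative settings, with an adjusted p of up to 0.0563. Srebf1 and Srebf2, which encode the SREBP factors, were not called, nor was Insig1. The Insig2 probe that stands for its gene was not called, at 0.17 on the control diet and -0.01 on the CCH diet. A dimmer Insig2 probe for another transcript of the gene was called on both diets, at 0.23 (adjusted p = 0.0415) and 0.24 (adjusted p = 0.0343), so the probes of Insig2 disagree.

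Stard4, a soluble carrier that moves cholesterol between membranes, was higher in SAM/P-8 on both diets. It measured 0.54, 0.26, 0.16 and 0.40 in SAM/P-8 control and 0.00, -0.13, -0.08 and 0.00 in SAM/R-1 control, and 0.75, 0.48, 0.57 and 0.52 in SAM/P-8 CCH and 0.34, 0.10, 0.32 and 0.09 in SAM/R-1 CCH. The strains did not overlap on either diet. The differences were 0.39 ± 0.09 (1.31-fold, adjusted p = 0.00777) and 0.37 ± 0.09 (1.29-fold, adjusted p = 0.0117). The control-diet call held in all 9 alternative settings and the CCH-diet call in 7 of 9, and both held with any 1 array left out. Without both SAM/P-8 control replicates 1 and 2 the control-diet difference was 0.33 and did not pass (adjusted p = 0.0703). The other kept Stard4 probes were well above background on only some arrays and were not called. The exporters Abca1 and Abcg1 and the liver X receptor genes Nr1h2 and Nr1h3 were not called between the strains, with differences from -0.09 to 0.11 over both diets.

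In the fatty acid arm, Elovl6, Fads2 and Scd2 differed between the strains, each on 1 diet. Elovl6, which lengthens palmitate, measured 2.26, 2.24, 2.27 and 2.24 in SAM/P-8 control and 2.16, 2.12, 2.03 and 2.14 in SAM/R-1 control. The groups did not overlap, and Elovl6 was higher in SAM/P-8 by 0.14 ± 0.04 (1.10-fold, adjusted p = 0.0343). Fads2, which makes the first double bond on the way to long polyunsaturated fatty acids, measured 0.62, 0.77, 0.79 and 0.82 in SAM/P-8 control and 0.90, 0.98, 1.04 and 0.99 in SAM/R-1 control. All 4 SAM/P-8 values lay below all 4 SAM/R-1 values, and the difference was -0.23 ± 0.06 (1.17-fold lower, adjusted p = 0.0257). On the CCH diet neither was called, at -0.01 ± 0.04 for Elovl6 and -0.10 ± 0.06 for Fads2. The interaction term, which tests whether the strain difference changes with the diet, did not pass for either (adjusted p = 0.796 and 0.946). The Elovl6 call was lost in 5 of 9 settings (adjusted p up to 0.322) and without any 1 of SAM/P-8 control replicates 1 to 4 and SAM/R-1 control replicates 2 and 3 (up to 0.113). The Fads2 call was lost in 2 of 9 settings (adjusted p up to 0.101) and without SAM/P-8 control replicate 1 or SAM/R-1 control replicates 2, 3 or 4 (up to 0.079).

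Scd2, the desaturase that makes monounsaturated fatty acids in brain, measured 6.09, 6.14, 6.06 and 6.31 in SAM/P-8 CCH and 6.35, 6.26, 6.41 and 6.35 in SAM/R-1 CCH. The high SAM/P-8 value was that of replicate 4, the array with striatal and oligodendrocyte signal, and the other 3 lay below all of SAM/R-1. The difference was -0.19 ± 0.06 (1.14-fold lower, adjusted p = 0.0351), and -0.24 (adjusted p = 0.00438) without that array. On the control diet the strains did not overlap, at 6.13 to 6.19 against 6.28 to 6.41, but the difference of -0.17 ± 0.06 did not pass (adjusted p = 0.0527). The CCH-diet call was lost in 4 of 9 settings, with a difference of -0.03 under quantile normalisation (adjusted p = 0.783) and -0.12 under normexp background correction (adjusted p = 0.715). It was also lost without any 1 of SAM/P-8 CCH replicates 1 to 3 and SAM/R-1 CCH replicates 1, 3 and 4, with an adjusted p of up to 0.103. Fasn, Acaca and Acly, the cytosolic enzymes that make palmitate, and Scd1, Fads1 and Elovl5 were not called between the strains.

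**Figure D2:**
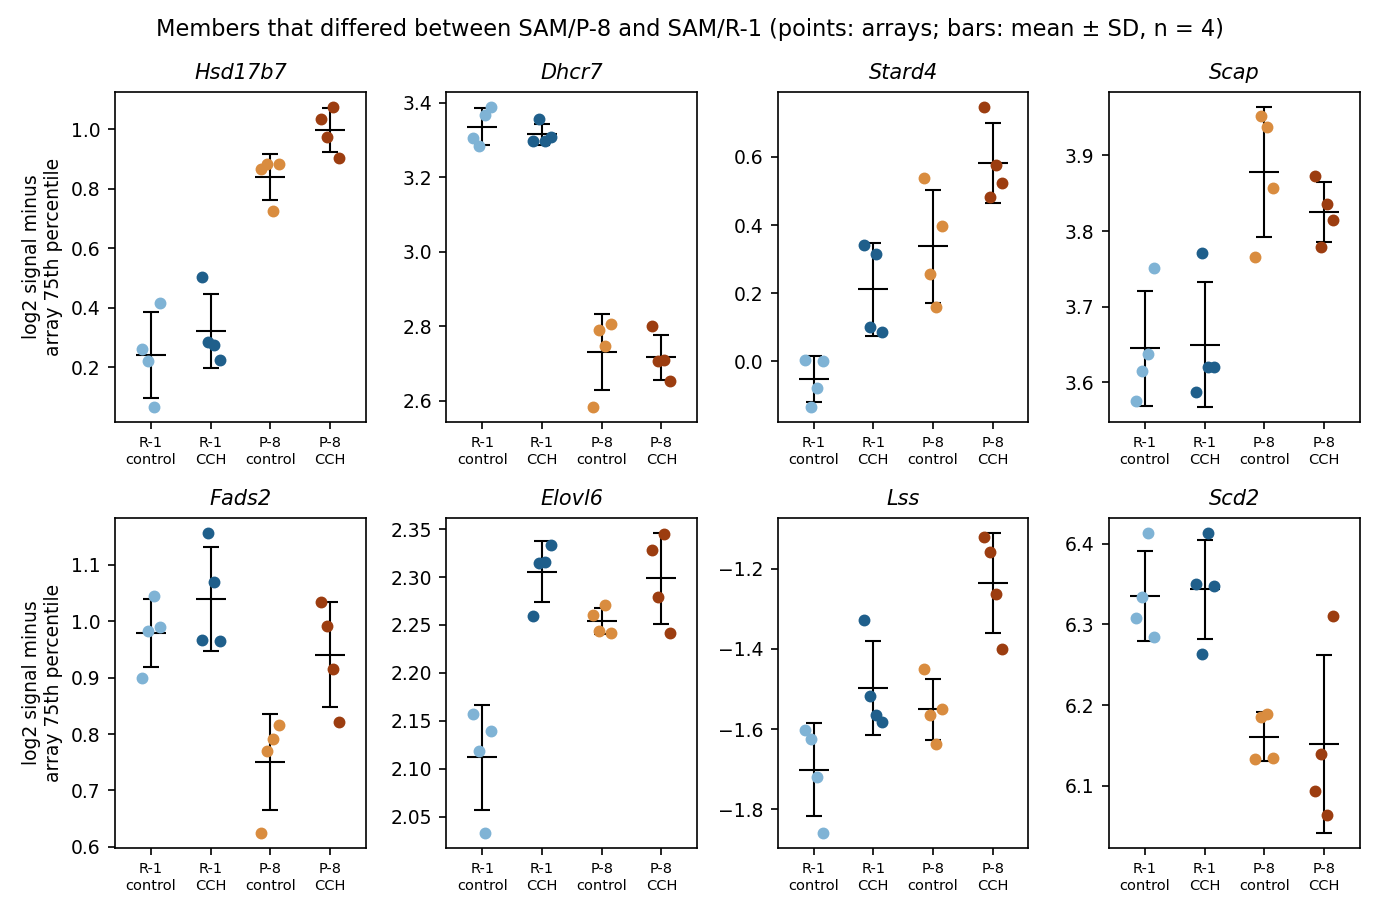
Values of the 8 members called between the strains on either diet, as log2 signal minus the 75th percentile of the array, for the 4 groups. Points are arrays and bars are mean ± SD (n = 4), and each panel has its own scale. Hsd17b7 and Stard4 are higher and Dhcr7 lower in SAM/P-8 on both diets without overlap, while 1 SAM/P-8 CCH array lies among the SAM/R-1 values for Scd2.

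Some markers of other cell types differed between the strains. Of 11 endothelial and pericyte markers, 10 were called higher in SAM/P-8 on the control diet and 5 on the CCH diet, with median differences of 0.58 and 0.39. The summed signal of that list ran from 22.67 to 29.26 in SAM/P-8 control and from 15.04 to 17.89 in SAM/R-1 control, and from 20.5 to 26.82 against 17.3 to 19.79 on the CCH diet. Of 11 microglial markers, 1 and 5 were called higher, and of 9 meningeal fibroblast markers, 1 and 2. Of all genes, 6.18% and 6.11% were called higher on the control and CCH diets. The microglial differences were 6 positive and 5 negative on the control diet, and 8 and 3 on the CCH diet. The astrocyte marker Gfap and the hippocampal marker Spink8 were each the 1 gene of their lists called on both diets, higher in SAM/P-8. Their lists did not follow them on the CCH diet. There 5 astrocyte markers had positive and 6 negative differences (median -0.03), and 4 hippocampal neuron markers positive and 7 negative (median -0.04). On the control diet 7 and 4 astrocyte and 9 and 2 hippocampal neuron markers were positive and negative. None of the 12 oligodendrocyte markers and none of 9 general neuron markers was called on either diet. Nor was any marker of red cells, choroid plexus or striatum, but all 4 red cell markers had positive differences, with a median of 1.24 on the control diet and 0.50 on the CCH diet. On the CCH diet all 11 striatal markers had positive differences, with a median of 1.02, and so did all 8 choroid plexus markers, with a median of 0.71. The part of these markers in the members' differences was not tested. The genes next to Hsd17b7 on chromosome 1 were looked at after its values were seen. Of the 5 measured genes on each side, 5 of 10 were called higher in SAM/P-8 on the control diet and 6 of 10 on the CCH diet. None was called lower, and 6.18% and 6.11% of all genes were called higher. Rgs5, called on both diets, is also in the endothelial and pericyte list. Next to Dhcr7 on chromosome 7, 1 of 10 was called, in the direction of Dhcr7, on each diet. Next to Scap, Stard4, Fads2, Elovl6, Lss and Scd2, at most 1 of 10 was called higher and at most 1 lower on either diet.

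With CCH in the diet, the called members were 4 sterol genes and 1 elongase, all higher. Insig1, which encodes a protein that keeps SCAP in the endoplasmic reticulum and is itself a classic SREBP target, had the largest difference. It measured -2.22, -2.12, -2.28 and -2.25 in SAM/P-8 control and -1.90, -1.73, -1.77 and -1.74 in SAM/P-8 CCH. In SAM/R-1 it measured -2.00, -2.34, -2.09 and -2.04 on the control diet and -1.76, -2.07, -1.87 and -1.83 with CCH. The diets did not overlap in SAM/P-8, while in SAM/R-1 the lowest CCH array lay within the control range. Averaged over the strains, Insig1 was higher with CCH by 0.33 ± 0.06 (1.26-fold, adjusted p = 0.0109). That call held in all 8 alternative settings, with an adjusted p of up to 0.0483, and with any 1 array left out.

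Within SAM/P-8 the difference of Insig1 was 0.43 ± 0.08 (1.35-fold, adjusted p = 0.0279), and within SAM/R-1 it was 0.24 ± 0.08 and did not pass (adjusted p = 0.313). The difference between the 2 effects was 0.20, with a 95% confidence interval of -0.05 to 0.44 (adjusted p = 0.941), so the strains were not shown to differ. The call within SAM/P-8 was lost in 5 of 9 settings, with an adjusted p of up to 0.253. It was also lost without any 1 of SAM/P-8 control replicate 3 and SAM/P-8 CCH replicates 2 to 4, with an adjusted p of up to 0.0876. Without SAM/P-8 CCH replicate 4, the array with the high striatal score, the difference was 0.42 (adjusted p = 0.0673). No member was then called for the diet in SAM/P-8, where 0.230% of all genes were. The second Insig1 probe, dimmer, gave 0.21 in SAM/P-8 and 0.17 on average and was not called (adjusted p = 0.304 and 0.186).

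Lss and Cyp51, which close lanosterol's ring system and then remove its first methyl group, were higher with CCH on average. Lss measured -1.45, -1.56, -1.64 and -1.55 in SAM/P-8 control and -1.12, -1.16, -1.26 and -1.40 in SAM/P-8 CCH, and -1.60, -1.62, -1.72 and -1.86 in SAM/R-1 control and -1.33, -1.52, -1.56 and -1.58 in SAM/R-1 CCH. The diets did not overlap in either strain, and the average difference was 0.26 ± 0.06 (1.20-fold, adjusted p = 0.0271). The second Lss probe gave 0.24 (adjusted p = 0.0278). Cyp51 measured -0.81, -0.64, -0.82 and -0.40 in SAM/P-8 control and -0.34, -0.38, -0.46 and -0.50 in SAM/P-8 CCH, where 1 control array lay within the CCH range. In SAM/R-1 it measured -0.66, -0.81, -0.82 and -0.67 on the control diet and -0.53, -0.44, -0.48 and -0.62 with CCH, without overlap. Its average difference was 0.23 ± 0.06 (1.18-fold, adjusted p = 0.0435), and both other Cyp51 probes were called too, at 0.30 and 0.34.

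The Lss call for the averaged diet effect was lost in 1 of 8 settings (adjusted p = 0.0901) and without any 1 of SAM/P-8 control replicates 2 and 3, SAM/P-8 CCH replicate 1, SAM/R-1 control replicate 3 and SAM/R-1 CCH replicate 1 (up to 0.0597). The Cyp51 call from its brightest probe was lost in 4 of 8 settings (adjusted p up to 0.0951) and held in 2 of the 16 fits with 1 array left out, those without SAM/P-8 control replicate 1 or replicate 4. Its adjusted p ran up to 0.0881 in these fits. Without SAM/P-8 CCH replicate 4 the Lss difference was 0.29 (adjusted p = 0.0206) and the Cyp51 difference 0.25 (adjusted p = 0.0506).

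Stard4 was higher with CCH on average by 0.25 ± 0.06 (1.19-fold, adjusted p = 0.0395). From the values given above, the diets overlapped in SAM/P-8, where 1 control array at 0.54 exceeded 2 CCH arrays, and did not overlap in SAM/R-1. Elovl6, the only member of the fatty acid arm called for the diet, was higher by 0.12 ± 0.03 (1.09-fold, adjusted p = 0.0404). It measured 2.33, 2.28, 2.35 and 2.24 in SAM/P-8 CCH and 2.26, 2.31, 2.32 and 2.33 in SAM/R-1 CCH. Its diets overlapped in SAM/P-8 and did not in SAM/R-1, where the difference was 0.19 ± 0.04 against 0.04 ± 0.04 in SAM/P-8. The interaction of Elovl6 was -0.15 with a 95% confidence interval of -0.27 to -0.02, and after adjustment it did not pass (adjusted p = 0.796).

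The Stard4 call for the diet was lost in 2 of 8 settings (adjusted p up to 0.0722) and held in 6 of 16 fits with 1 array left out, those without SAM/P-8 control replicates 1 or 4, SAM/P-8 CCH replicates 2 or 4, or SAM/R-1 CCH replicates 2 or 4 (up to 0.0801). The Elovl6 call was lost in 3 of 8 settings, with a difference of 0.03 under normexp background correction (adjusted p = 0.661). It held in 5 of 16 fits with 1 array left out, those without SAM/P-8 control replicate 1, SAM/P-8 CCH replicates 2 or 4, SAM/R-1 control replicate 1 or SAM/R-1 CCH replicate 2 (adjusted p up to 0.0777). Without SAM/P-8 CCH replicate 4 again 5 members were called on average, with Mvd, which decarboxylates mevalonate diphosphate, in place of Cyp51. Of all genes, 2.91% were called in that fit.

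**Figure D3:**
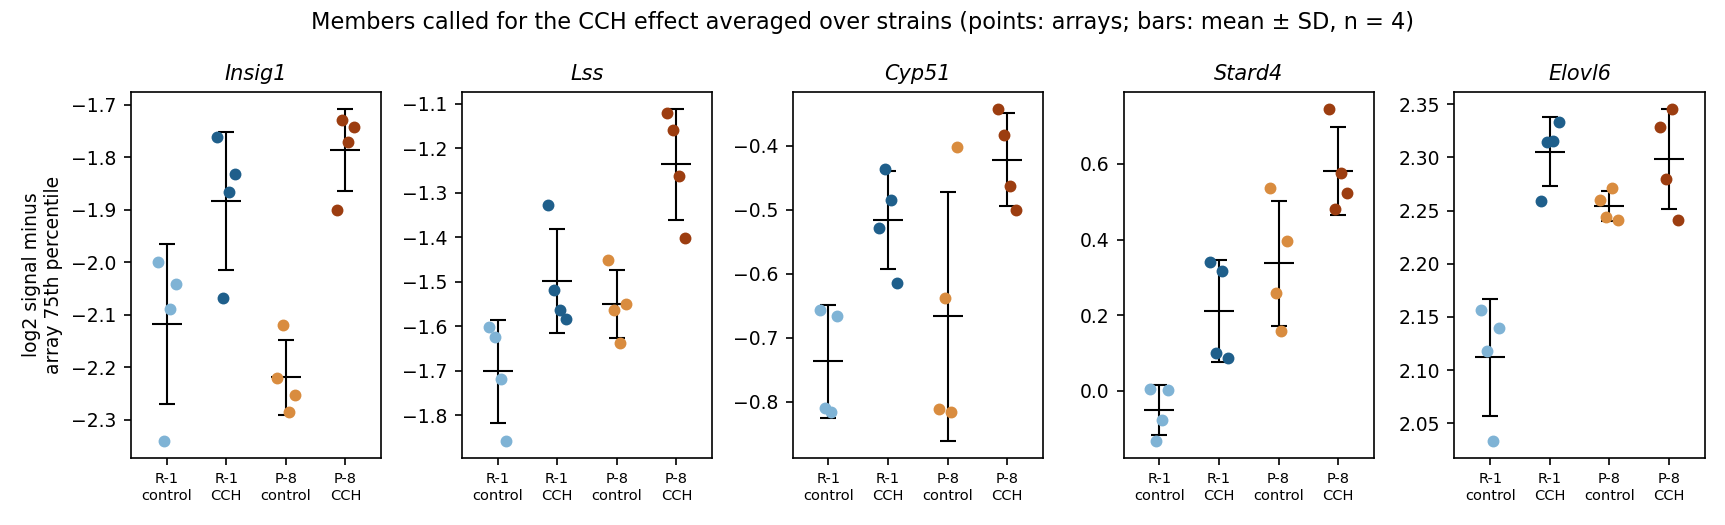
Values of the 5 members called for the CCH effect averaged over the strains, as log2 signal minus the 75th percentile of the array. Points are arrays and bars are mean ± SD (n = 4), and each panel has its own scale. The CCH mean lies above the control mean of the same strain in every panel, and for Lss the diets do not overlap in either strain.

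Promoter windows are shown for Insig1, Cyp51 and Lss, 3 of the 4 sterol genes called higher with CCH on average. SREBP target promoters are known to carry sterol response elements beside NF-Y boxes. The part of SREBP in the diet differences was not tested. The windows come from RefSeq on GRCm38.p6 and run from 250 bases before to 50 bases after the transcription start, and 29 of the 37 members had one. They were searched on both strands for CCAAT (the NF-Y box), CACGTG (an E-box) and TCACNCC (the start of the sterol response element consensus), and capitals mark the matches, none of which overlapped another. The windows below are of Insig1 at chr5:28071162-28071461 on the plus strand, Cyp51 at chr5:4104648-4104947 on the minus strand and Lss at chr10:76531355-76531654 on the plus strand, each read 5′ to 3′ in the direction of its gene.
Insig1: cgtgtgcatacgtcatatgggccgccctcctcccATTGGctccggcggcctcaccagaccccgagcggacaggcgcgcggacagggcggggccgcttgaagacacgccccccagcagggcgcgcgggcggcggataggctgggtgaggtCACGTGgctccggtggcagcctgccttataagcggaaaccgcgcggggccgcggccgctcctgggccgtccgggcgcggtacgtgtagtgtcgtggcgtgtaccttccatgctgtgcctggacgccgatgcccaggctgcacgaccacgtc
Cyp51: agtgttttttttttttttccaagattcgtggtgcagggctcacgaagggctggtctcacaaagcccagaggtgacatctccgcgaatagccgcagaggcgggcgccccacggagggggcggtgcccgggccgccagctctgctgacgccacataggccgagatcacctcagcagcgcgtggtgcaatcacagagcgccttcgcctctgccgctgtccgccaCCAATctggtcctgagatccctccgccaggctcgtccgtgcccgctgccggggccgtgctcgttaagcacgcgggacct
Lss: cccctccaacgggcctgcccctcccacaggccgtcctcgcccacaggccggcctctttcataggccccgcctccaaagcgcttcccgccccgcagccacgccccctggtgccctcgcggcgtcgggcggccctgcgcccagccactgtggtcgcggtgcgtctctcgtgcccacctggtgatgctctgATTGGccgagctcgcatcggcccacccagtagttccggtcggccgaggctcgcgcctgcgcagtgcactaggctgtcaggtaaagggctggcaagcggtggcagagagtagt
Insig1 had a CCAAT on the opposite strand, 216 bases before the start, and a CACGTG 101 bases before it. Cyp51 had a CCAAT 29 bases before the start, and Lss had one on the opposite strand 62 bases before it. The window of Elovl6 held none of the 3 motifs. CCAAT was present in 21 of the 29 member windows (72.4%) and in 41.1% of the 27025 genes with a window. For CACGTG the shares were 7 of 29 and 8.09%. For TCACNCC they were 6 of 29 (20.7%) and 17.6%, so the members' share was near that of all genes. All 6 were of the sterol arm, to which 23 of the 29 windows belonged. The start of the sterol response element consensus was found in none of the windows of Insig1, Cyp51 and Lss. These are matches of letters in a short window and no measure of binding.

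The other members gave no called diet effect. Over both strains, 25 of the 36 differences were positive with CCH, where 42.0% of all genes were, and under the alternative settings and left-out arrays the count ran from 22 to 30. The median difference was 0.03 over the sterol arm and 0.12 over the fatty acid arm, against -0.02 over all genes. Mevalonate-stage genes stayed between -0.04 and 0.13, and Abca1, Abcg1, Nr1h2 and Nr1h3 between -0.18 and 0.06. The dimmer Hmgcs1 probe lay outside the mevalonate range, at 0.17, and was not called (adjusted p = 0.314). Abca1 and Nr1h3 had the lowest values, at -0.17 ± 0.06 (adjusted p = 0.11) and -0.18 ± 0.07 (adjusted p = 0.125), and neither passed.

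Among the members not called in any comparison, 4 are given by group for their place in the pathways. Hmgcs1, which makes HMG-CoA, ranged from 4.15 to 4.52 in SAM/P-8 control, 4.22 to 4.46 in SAM/P-8 CCH, 4.40 to 4.73 in SAM/R-1 control and 4.38 to 4.57 in SAM/R-1 CCH. Sqle, the squalene epoxidase and a regulated step of the pathway, ranged from 1.83 to 2.15, 1.68 to 2.10, 1.72 to 1.99 and 1.91 to 2.10 in the same order of groups. Fasn, the fatty acid synthase, ranged from 5.47 to 5.67, 5.47 to 5.56, 5.54 to 5.83 and 5.50 to 5.79. The groups compared overlapped for all 3. Srebf2, whose product drives most sterol synthesis genes, ranged over all 16 arrays from -0.27 to 0.03, and its groups overlapped too. Its difference with CCH on average was 0.03 ± 0.05 (adjusted p = 0.764).

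In SAM/R-1 alone no member was called with CCH, where 0.104% of all genes were. The smallest p-values of the sterol arm there were those of Stard4 (0.26 ± 0.09, adjusted p = 0.297) and Insig1, and those of the fatty acid arm were Elovl6 (adjusted p = 0.0959) and Scd1 (0.12 ± 0.08, adjusted p = 0.613). For the interaction of strain and diet, the member with the smallest p was Elovl6 (adjusted p = 0.796). Next in p were Insig2 (-0.17 ± 0.08, adjusted p = 0.912) and Insig1 in the sterol arm and Acly (0.21 ± 0.12, adjusted p = 0.936) in the fatty acid arm.

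With CCH in SAM/P-8, no member of the fatty acid arm was called. The smallest p-values of the arm were those of Fads2 (0.19 ± 0.06, adjusted p = 0.137) and Elovl5 (0.20 ± 0.07, adjusted p = 0.149). Elovl5, Scd1 and Acly had their highest values on 1 array. Elovl5, which lengthens polyunsaturated fatty acids, measured 2.22, 2.08, 2.15 and 2.46 in SAM/P-8 CCH and 2.05, 1.97, 1.98 and 2.12 in SAM/P-8 control. Scd1, the other stearoyl-CoA desaturase, measured 1.81, 1.69, 1.79 and 2.15 against 1.64, 1.71, 1.59 and 1.62, and Acly, which supplies cytosolic acetyl-CoA, 0.36, 0.33, 0.46 and 0.67 against 0.24, 0.20, 0.11 and 0.34.

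In all 3 genes the highest of the 16 arrays was SAM/P-8 CCH replicate 4, as it was for Abcg1 at 2.10. The same array held the lowest of the 16 values for Pmvk, Sqle, Tm7sf2 and Acaca, so it was an extreme of 8 of the 36 members. Without it the difference with CCH in SAM/P-8 went from 0.20 to 0.12 for Elovl5, from 0.22 to 0.13 for Scd1 and from 0.23 to 0.16 for Acly, while that of Fads2 went from 0.19 to 0.23. The difference of Fads1 went from 0.12 to 0.13 and that of Elovl6 from 0.04 to 0.06. Acaca went from -0.04 to 0.02, Fasn from -0.08 to -0.07 and Scd2 from -0.01 to -0.06. Other arrays held as many or more: SAM/P-8 control replicate 2 held the highest of 16 values for 6 members and the lowest for 2, and SAM/R-1 control replicate 3 the highest for 2 and the lowest for 6. SAM/P-8 control replicate 1 held the highest for 3 members and the lowest for 9, among them Hmgcs1, Fdps, Msmo1, Fasn and Fads2. The summed oligodendrocyte signal was 201.5 on SAM/P-8 CCH replicate 4 and ran from 117.0 to 167.0 on the other arrays, and the part of this signal in the values of Scd1, Elovl5 and Acly was not tested.

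**Figure D4:**
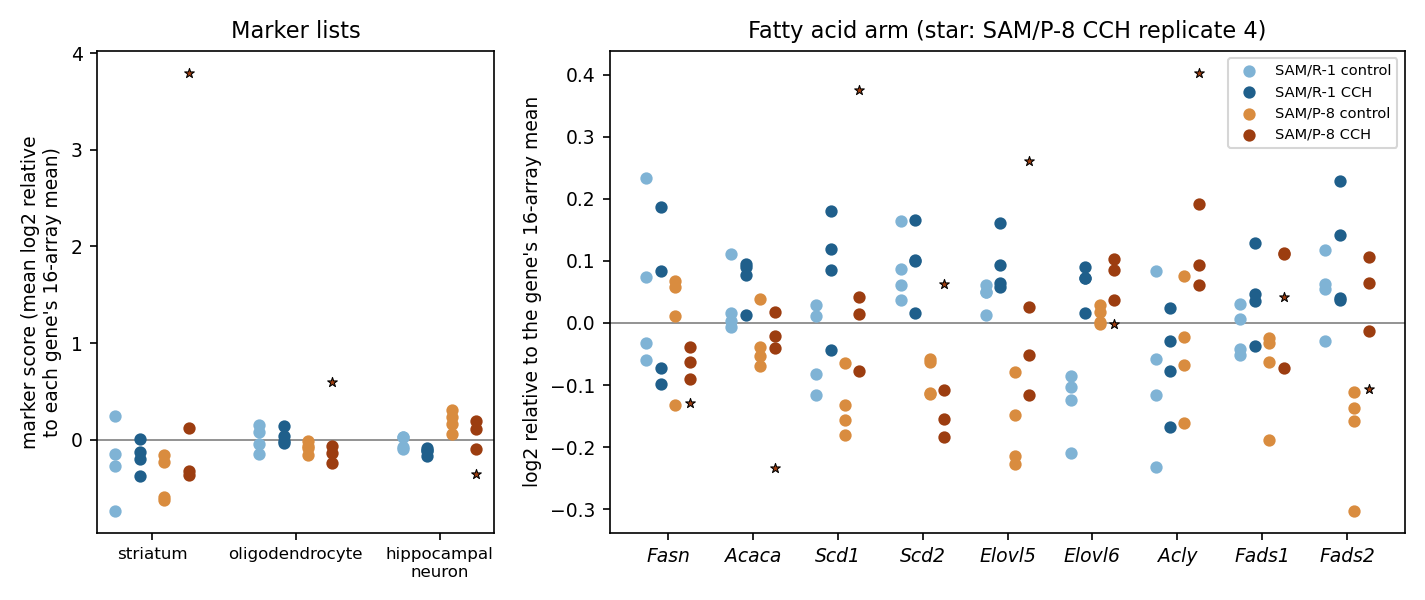
Marker scores by array (left, mean log2 value relative to the 16-array mean of each gene for the striatum, oligodendrocyte and hippocampal neuron lists) and the 9 fatty acid genes by array (right, log2 value relative to the 16-array mean of the gene). Points are arrays in 4 group colours and the star is SAM/P-8 CCH replicate 4. The star is highest for the striatum score (3.80) and the oligodendrocyte score (0.60), and for Scd1, Elovl5 and Acly.

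Few markers of other cell types were called for the diet, though the medians of some lists lay farther from 0 than the difference of any member. Over all 13455 genes, 216 were called higher and 341 lower with CCH on average. Of 11 hippocampal neuron markers 1 was called lower on average, with a median of -0.22, and none of 12 oligodendrocyte, 11 astrocyte or 11 microglial markers was called. Of 11 endothelial and pericyte markers 1 was called higher, and of 4 measured red cell markers 1 was called lower, with all 4 negative and a median of -0.78. Of 11 striatal markers none was called and 10 were positive, with a median of 0.42 on average and 1.19 within SAM/P-8, where CCH replicate 4 had the high striatal score. All 8 measured choroid plexus markers had negative differences, with a median of -0.65, and none was called. Their part in the members' diet differences was not tested.

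Other genes of the pathways were taken from lists beside the members. Of 19 measured sterol synthesis and regulation genes outside the set, 1 was called lower in SAM/P-8 on each diet. Of all genes, 6.61% and 6.50% were called lower on the control and CCH diets. Ggps1, which makes geranylgeranyl diphosphate on a side branch, was lower by 0.88 ± 0.06 on the log2 scale on the control diet (a difference of -0.88, adjusted p = 1.02e-07) and by 2.09-fold, a difference of -1.06, on the CCH diet (adjusted p = 1.18e-08). Npc1, which releases cholesterol from lysosomes, was called higher in SAM/P-8 on the CCH diet at 0.15 ± 0.04 (adjusted p = 0.0314).

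With CCH averaged over the strains, Npc1 was higher by 0.14 ± 0.03 (1.10-fold, adjusted p = 0.0266), and none of these genes was called lower. Of 18 genes of brain cholesterol transport and turnover none was called with the diet, where 4.14% of all genes were called on average over the strains. Between the strains, Ch25h, which makes an oxysterol, was called higher in SAM/P-8 on both diets at 2.07 ± 0.46 (adjusted p = 0.00676) and 1.52 ± 0.46 (adjusted p = 0.0404), and Apoe, the main lipid carrier of brain, was lower on the control diet by 1.13-fold, a difference of -0.18 ± 0.05 (adjusted p = 0.0438). Of 27 further fatty acid synthesis and activation genes none was called between the strains, where 12.8% and 12.6% of all genes were. With CCH on average 1 of the 27 was called, a share near the 4.14% of all genes. It was Me1, which supplies NADPH, lower by 1.15-fold, a difference of -0.20 ± 0.05 (adjusted p = 0.0394).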

How the data were processed

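Hippocampal total RNA was labelled with Cy3 and hybridised to single-colour Agilent mouse arrays, read with Agilent Feature Extraction 9.5.3.1 per the file headers. The values used are the deposited processed signal, an intensity that the scanner software had corrected for background, with its flags for spots well above background and for non-uniform spots, which are other deposited columns. The authors' deposited value table holds log2 values; after centring, its columns correlated at 0.9997 to 0.9999 with the scanner values and had medians of -0.038 to 0.037. It served as an alternative only.

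Each array's log2 signals were centred on its 75th percentile over non-control spots. Spots of a probe were averaged after 187 non-uniform spots were left out. Probes were named through their RefSeq accession where it matched a single gene of a RefSeq table (GRCm38.p6), which named 24836 of 41174 probes. A probe was kept if some group had it well above background on each of its 4 arrays, which kept 29009 probes and left out 12165, and the brightest kept probe stood for its gene. Of the members, 20 had 1 kept probe and 16 had up to 4. limma 3.58.1 in R 4.3.3 fitted 1 mean per group over the 16 arrays, with 6 contrasts and Benjamini-Hochberg adjustment over all kept probes at a threshold of 0.05. The averaged CCH effect is the mean of the effects in both strains, and the interaction is their difference. No test was run on a list of genes. The fit was tested on simulated data.

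Members whose probe passed in any contrast are given by array. For each arm and contrast with none past the threshold, the 2 members with the smallest p are named, and other pathway genes only where they passed. Some results for pathway genes outside the set are not reported here. The members, the related lists and the marker lists were chosen with earlier results of these data known. Alternatives were normexp background correction, quantile normalisation, median centring, no filter on dim probes or a stricter one, the mean over a gene's probes, the authors' table, a replicate block, fits of only the groups compared, and leaving out each array. Leaving out a pair of arrays with high red cell scores was added after the data were seen. Replicate numbers match slide positions on all 16 arrays. Same-numbered arrays of different groups had deviations that correlated at -0.249 to 0.303, over 0.1 in 6 of 24 pairs, so the numbers were not taken to pair samples. The number of arrays limits the precision.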

Additional observations from a re-analysis of the deposited data

Results flagged for a closer look

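In 5 of the 144 groups of 4 arrays checked over the 36 members, 1 array lay far from the other 3 by Dixon's criterion at the 95% level, and chance flags about 1 group in 20. Hmgcs1, the synthase of the mevalonate pathway, was high at 4.73 on SAM/R-1 control replicate 4, where the others lay between 4.40 and 4.46. Abcg1, a cholesterol exporter, was high on the same array, at 1.84 against 1.74 on each of the others. Mvk, mevalonate kinase, was low at -0.79 on SAM/R-1 CCH replicate 1, against -0.73 to -0.72. Ebp, a sterol isomerase, was high at 3.40 on SAM/R-1 CCH replicate 2, against 3.33. Hsd17b7 was low at 0.72 on SAM/P-8 control replicate 3, against 0.87 to 0.88, which is still above its 8 SAM/R-1 values.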

How the results depend on the processing

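No called member changed direction under any alternative or left-out array. With normexp background correction, 3 members were called between the strains on the control diet (6 in the report), 2 on the CCH diet (5), 0 for CCH in SAM/P-8 (1) and 1, Insig1, for CCH on average (5); 3.56%, 3.04%, 0.00% and 0.461% of all genes were then called. With median centring the counts were 3 between the strains on the control diet, 0 for CCH in SAM/P-8 and 2 on average. Of all genes, 10.6%, 0.305% and 1.44% were called with that centring. The mean over a gene's probes gave 0 for CCH in SAM/P-8, where 0.788% of all genes were called. Fits of only the groups compared gave 0 there and 3 between the strains on the CCH diet. They called 0.0446% and 8.99% of all genes. With the replicate number as a block, which the numbers do not warrant as a pairing, 5 and 4 members were called between the strains. For CCH, 1 was called in SAM/P-8 (Lss in place of Insig1) and 3 on average. The block fit called 12.1%, 11.7%, 0.387% and 2.81% of all genes. Leaving out 1 array gave 4 to 8 and 3 to 6 members between the strains, 0 to 2 in SAM/P-8 and 1 to 5 on average. Of all genes, 9.48% to 14.8% and 9.09% to 13.5% were then called between the strains. For CCH, 0.156% to 1.49% were called in SAM/P-8 and 0.862% to 7.72% on average. The fewest members, 1 on average, came without SAM/P-8 control replicate 2 or 3, SAM/P-8 CCH replicate 1, SAM/R-1 control replicate 3 or SAM/R-1 CCH replicate 1. These fits called 0.862% to 1.29% of all genes for CCH on average, against 4.14% with all arrays. Leaving out SAM/P-8 control replicates 1 and 2 together, chosen after seeing the data, gave 3 and 4 members between the strains. It gave 0 in SAM/P-8 and 1 on average. Of all genes, 7.05%, 12.8%, 0.0446% and 1.14% were then called. In SAM/R-1 and for the interaction the count was 0 under every alternative run and every left-out array. The medians of both arms moved by less than 1 SD between arrays of a group in 279 of 296 such recalculations. Many of these could not move, as leaving out an array outside the 2 groups compared does not change their difference. That SD was 0.0447 for the sterol arm, above its median of 0.0306 for CCH on average, and 0.0395 for the fatty acid arm. The count therefore cannot show that the medians were stable. The causes were not tested.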
